A study of Homo sapiens with 6 samples.

Results

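The genes of the lysosome were followed after depletion of CyCoNP, a cytoplasmic long noncoding RNA of neural progenitors. The set holds 38 genes, taken by symbol from the 60676 genes of the count and FPKM tables (fragments scaled by gene length and library total). It comprises 10 cysteine cathepsins, 3 aspartic or serine proteases, 7 glycosidases, 4 sulfatases, 4 lipid hydrolases, 3 lipid transfer or activator proteins, 5 membrane proteins and the 2 transcription factors TFEB and TFE3. All 38 matched a row, and 33 had a mean of at least 1 FPKM in either group and were tested. The remaining 5, CTSH, CTSO, CTSS, CTSZ and FUCA1, stayed below that level.

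The cells were SK-N-BE, a human neuroblastoma line that gains neuronal traits under retinoic acid, and every library came from cells differentiated for 1.5 days with 10 μM retinoic acid. A scrambled siRNA had been transfected in the 3 control libraries (si-SCR), and a mixture of siRNAs directed at exon 2 of the lncRNA in the other 3 (si-CyCoNP), so that n = 3 throughout. Depletion was thus transient, in 1 cell line and with 1 siRNA pool, and nothing in the labels says whether replicates were separate cultures, so that p-values measure only the spread between these libraries. The question was whether the lower level of CTSV, a gene that the study itself followed, was shared by other lysosomal genes. The value of CTSV is therefore the starting point and not independent evidence.

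Lysosomes are acidic vesicles in which proteins, glycans and lipids delivered by endocytosis and autophagy are broken down. Their enzymes are made in the endoplasmic reticulum, tagged with mannose 6-phosphate in the Golgi and carried to the lysosome by sorting receptors. Many of their genes hold a short element with the letters CACGTG near the start, which TFEB and TFE3 bind when they enter the nucleus. Neurons depend on this system over long distances, and loss of single lysosomal enzymes causes storage diseases that often affect the brain.

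The count table held 3762009 to 4799407 fragments per library, of which the 38 genes took 0.343% to 0.383%. Replicates of a group correlated across genes at a Pearson's r of 0.984 to 0.987 in log2 CPM (counts relative to their library total), and each pair differed by more than counting noise. LINC02381, the gene of CyCoNP, had 274, 208 and 315 counts in si-SCR against 20, 30 and 12 in si-CyCoNP, at a log2 fold change of -3.78 and an SE, the standard error of the fit, of 0.190 (edgeR quasi-likelihood test with Benjamini-Hochberg adjustment, adjusted p = 6.84e-14). All fold changes below compare si-CyCoNP with si-SCR in the same fit over 13966 genes. Errors beside mean FPKM are standard deviations over 3 libraries.

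Lysosomal genes did not move as 1 block. Of the 33 tested, 13 fell, 4 rose and 16 did not pass an adjusted p of 0.05 (edgeR). Among all genes tested, 28.4% passed in either direction, 14.2% lower and 14.2% higher, against 51.5% of the tested lysosomal genes. With library totals in place of the TMM scaling, 12 lysosomal genes were lower and 5 higher, while over all genes the split moved from 1990 lower and 1982 higher to 1574 lower and 2465 higher. The median log2 fold change of the tested lysosomal genes was -0.23, beside 0.01 for all genes, and was -0.21 without CTSV. In the main fit 26 of the 33 estimates were below 0 and 7 above, beside 6901 and 7065 over all genes. Signs of estimates near 0 depended on the scaling. With a log2 fold change beyond 1 as well, 4 genes were called lower, TFEB, ARSB, CTSV and SCARB2, and 0 were called higher, beside 2.98% and 2.28% of all genes. On the log2(FPKM + 1) scale with limma 6 genes passed lower, 3 passed higher and 2 were called lower.

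**Figure D1:**
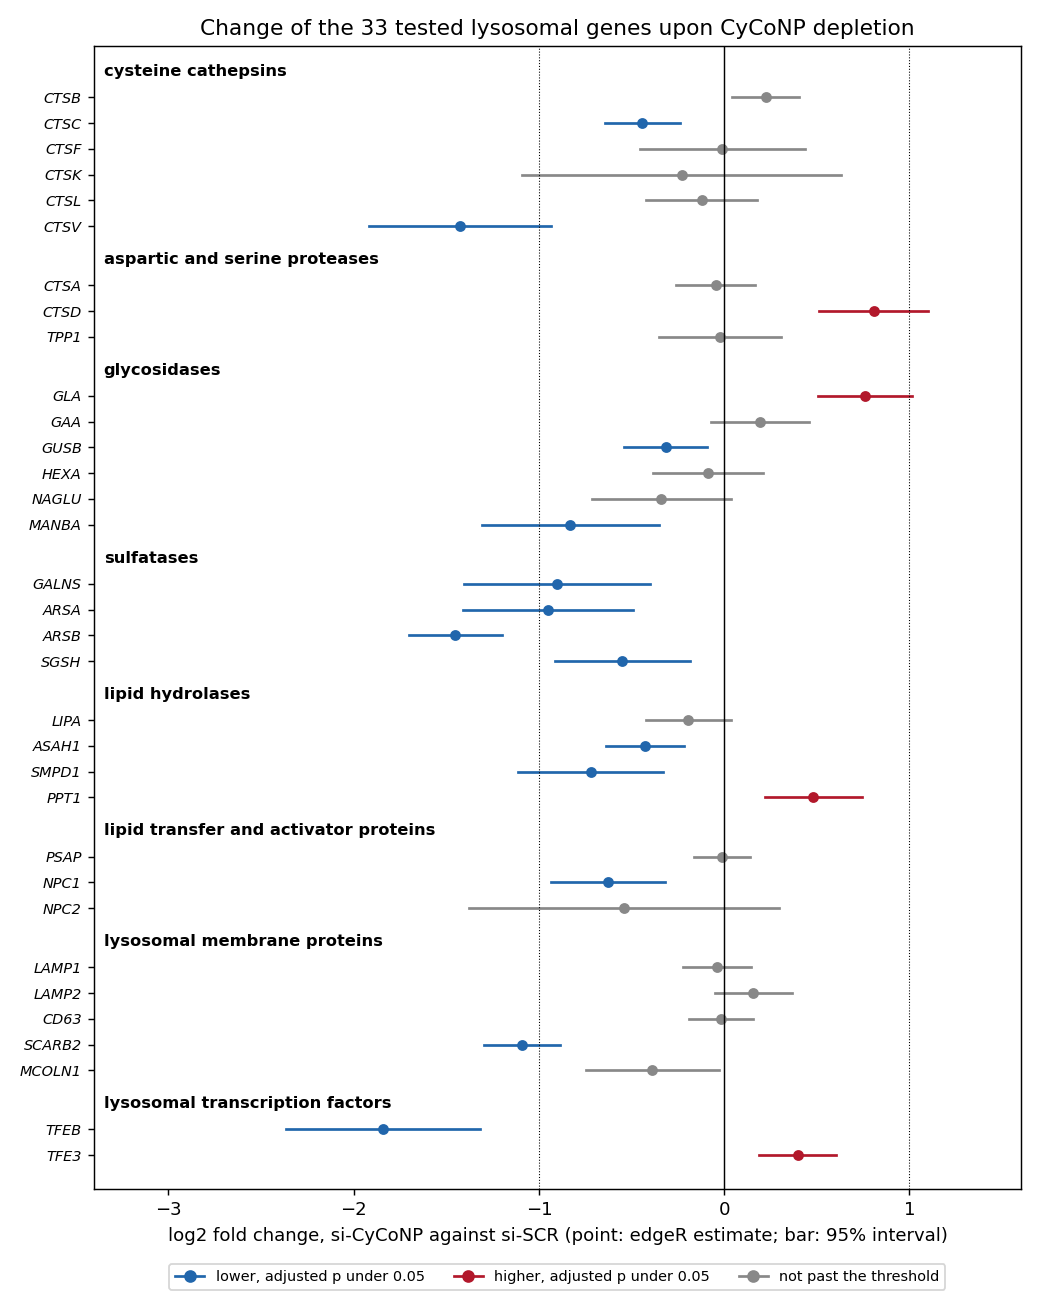
Log2 fold change of each tested lysosomal gene, si-CyCoNP against si-SCR, by role in the lysosome; points are edgeR estimates, bars their 95% intervals, and dotted lines mark -1 and 1. TFEB at -1.84, ARSB at -1.45, CTSV at -1.43 and SCARB2 at -1.09 lie beyond -1, and CTSD at 0.81 lies farthest to the right.

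All 17 passing genes had groups that did not overlap in CPM. Including NAGLU and CTSK, which did not pass (CTSK overlapped in FPKM), 15 of the 33 had every si-CyCoNP library below every si-SCR library, and 4 had the reverse. Over all genes tested these shares were 20% and 20.1%. MANBA, GALNS and TFEB averaged under 1 FPKM in si-CyCoNP and entered the test through their si-SCR level, and each of them also passed when no filter was applied.

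**Figure D2:**
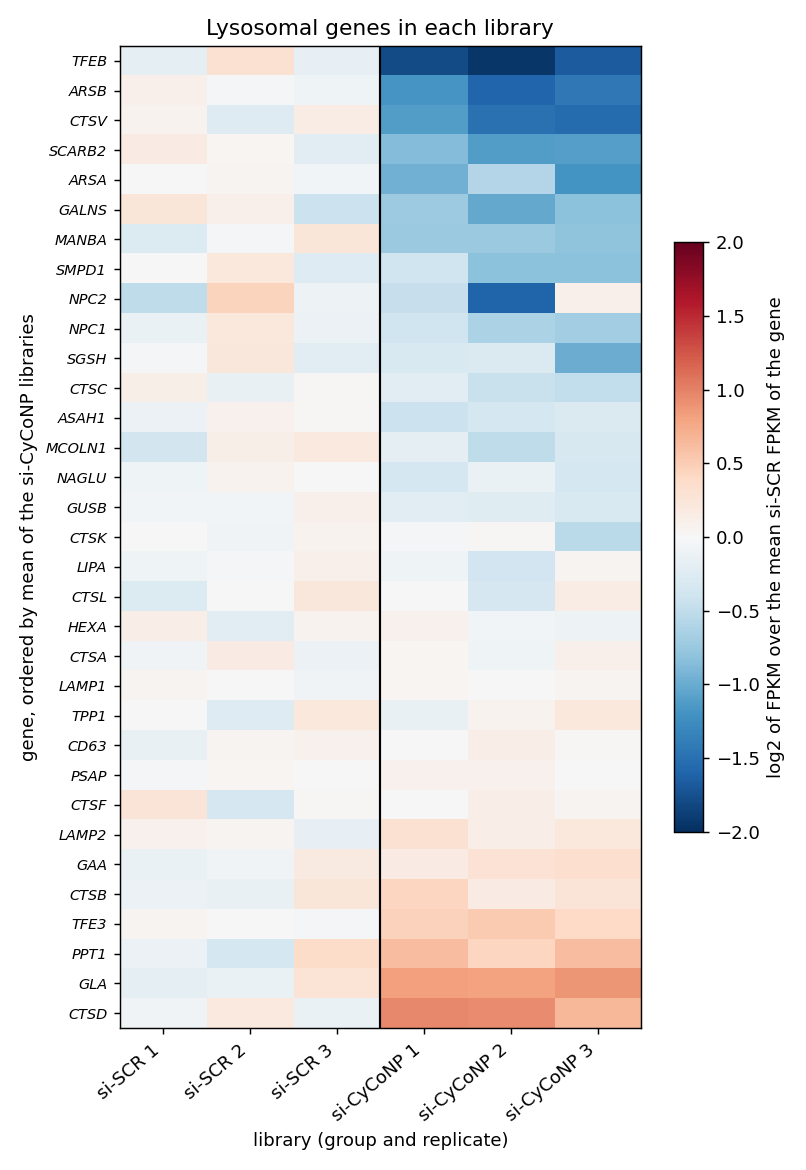
Each cell is 1 gene in 1 library, coloured by the log2 ratio of its FPKM to the mean si-SCR FPKM of that gene, with the 33 tested genes ordered by their mean in si-CyCoNP. TFEB, ARSB, CTSV and SCARB2 are blue in all 3 si-CyCoNP libraries, CTSD and GLA red in all 3, and NPC2 varies among libraries of the same group.

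Cysteine cathepsins, the endopeptidases and exopeptidases that carry out much of lysosomal proteolysis, were examined first because CTSV belongs to them. Of 6 tested, CTSV and CTSC fell and the other 4 did not pass. CTSV, also called cathepsin L2, lies at 97029677 to 97156556 of chromosome 9 (GRCh38) on the minus strand. It had 63, 44 and 74 counts under si-SCR against 31, 21 and 20 under si-CyCoNP. These are 3.24, 2.58 and 3.41 FPKM against 1.42, 1.09 and 1.06 FPKM. The groups were separate, with the highest si-CyCoNP library below the lowest si-SCR library. Its mean went from 3.08 ± 0.439 to 1.19 ± 0.201 FPKM, which left 37.2% of the level (log2 fold change -1.43, SE 0.239, edgeR adjusted p = 3.92e-05).

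CTSL, the nearest relative of CTSV and likewise on chromosome 9, at 87724051 to 87731469, is the ubiquitous form of this protease. It had 15.3, 18.5 and 21.7 FPKM under si-SCR against 18.3, 14.7 and 20.4 under si-CyCoNP. The groups overlapped, and the log2 fold change was -0.12 with a 95% interval from -0.42 to 0.18 (edgeR, adjusted p = 0.583). The estimate for CTSV lies outside that interval. Within each library the log2 CPM of CTSV minus that of CTSL was -0.93, -1.52 and -1.35 in si-SCR against -2.31, -2.36 and -2.86 in si-CyCoNP. The pair was thus farther apart in every si-CyCoNP library, by a mean of -1.24. As CTSV was followed for its lower level this is a description, and an exact permutation test of 3 libraries against 3 cannot go below a p of 0.1.

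CTSC, a dipeptidyl peptidase that activates granule serine proteases, had 12.5, 10.4 and 11.8 FPKM under si-SCR against 10.1, 8.53 and 8.19 under si-CyCoNP. Its groups did not overlap, although the nearest libraries were close, and CTSC passed as lower (log2 fold change -0.44, SE 0.0984, edgeR adjusted p = 0.00109). CTSB, the most abundant cathepsin per length, had 148, 145 and 189 FPKM under si-SCR against 217, 181 and 191 under si-CyCoNP. Here 1 si-SCR library lay within the range of the other group, and the log2 fold change of 0.22, with a 95% interval from 0.04 to 0.41, did not pass (edgeR, adjusted p = 0.0576). It passed as higher without si-SCR replicate 3, without si-CyCoNP replicate 2, with library totals alone, with no filter and with the replicate number as a block (adjusted p = 0.00369). As a share of the summed FPKM of the 10 cysteine cathepsins, CTSB took 80.1% ± 0.930 under si-SCR and 85.1% ± 0.410 under si-CyCoNP, and CTSV took 1.54% ± 0.177 and 0.515% ± 0.0446.

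CTSF, a broadly expressed cathepsin, had 32 to 55 counts per library and a log2 fold change of -0.01. Its 95% interval, from -0.46 to 0.44, leaves out the estimate for CTSV but holds that for CTSC. CTSK, the collagenase of osteoclasts, was near the limit of what the depth can resolve. It had 8 to 14 counts, and its interval ran from -1.09 to 0.63, so that a change of the size seen for CTSC was not detectable. CTSH, an aminopeptidase, had 10, 20 and 38 counts under si-SCR against 31, 25 and 3 under si-CyCoNP, a spread within groups wider than the difference between them. CTSO had 1 to 14 counts and CTSZ, a carboxypeptidase, 0 to 3. CTSS, the cathepsin of antigen-presenting cells, had 5 counts in si-SCR replicate 3 and 0 in the other libraries.

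Among the other proteases, CTSD rose and CTSA and TPP1 did not pass. CTSD, the main aspartic protease of the lysosome (chromosome 11, 1752752 to 1764573), had 6.65, 8.03 and 6.38 FPKM under si-SCR against 13.7, 13.5 and 11.1 under si-CyCoNP. Every si-CyCoNP library lay above every si-SCR library, and the level was 1.75-fold higher (log2 fold change 0.81, SE 0.144, edgeR adjusted p = 8.88e-05). In the annotation 27.3% of its exonic bases are shared with 2 other genes annotated to that strand, which makes its count less certain than most others here. CTSA, a carboxypeptidase that protects other lysosomal enzymes, had 14.2 ± 1.55 and 14.4 ± 0.964 FPKM, and TPP1, a tripeptidyl peptidase, 3.51 ± 0.570 and 3.65 ± 0.456 FPKM. Over all 9 proteases tested, 2 fell, 1 rose and 6 did not pass, so that 33.3% passed, beside 28.4% of all genes.

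All 4 sulfatases fell in the edgeR fit, and 2 of them, ARSA and ARSB, passed under every alternative run. These enzymes strip sulfate from glycosaminoglycans and sulfatides and need a modified cysteine in the active site. ARSB, which acts on dermatan and chondroitin sulfate (chromosome 5, 78777209 to 78986087), had 361, 289 and 355 counts under si-SCR against 166, 111 and 120 under si-CyCoNP. In FPKM these were 9.45, 8.63 and 8.34 against 3.89, 2.94 and 3.25. The lowest si-SCR library was above the highest si-CyCoNP library by a wide gap, and 36.5% of the level remained (log2 fold change -1.45, SE 0.122, edgeR adjusted p = 7.02e-10).

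ARSA, the sulfatide sulfatase whose loss causes metachromatic leukodystrophy (chromosome 22, 50622754 to 50628173), had 3.05, 3.19 and 2.93 FPKM under si-SCR against 1.57, 2.04 and 1.34 under si-CyCoNP. Its groups were separate, and 51.7% of the level remained (log2 fold change -0.95, SE 0.224, edgeR adjusted p = 0.00187). GALNS, which acts on keratan sulfate (chromosome 16, 88813734 to 88856970), had 1.75, 1.58 and 1.09 FPKM under si-SCR against 0.893, 0.728 and 0.832 under si-CyCoNP, and fell by 0.90 on the log2 scale (edgeR, adjusted p = 0.00607). SGSH, the sulfamidase of heparan sulfate (chromosome 17, 80206716 to 80220923), had 3.98, 4.79 and 3.55 FPKM under si-SCR against 3.32, 3.36 and 2.06 under si-CyCoNP. The SGSH groups nearly touched, and the fall of the gene (log2 fold change -0.55, edgeR adjusted p = 0.0196) no longer passed without si-SCR replicate 2 or without si-CyCoNP replicate 3. On both FPKM scales with limma neither GALNS nor SGSH passed, with adjusted p from 0.129 to 0.167, and ARSA and ARSB did.

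Together the 4 sulfatases summed to 18.2, 18.2 and 15.9 FPKM in si-SCR and to 9.67, 9.06 and 7.49 FPKM in si-CyCoNP. ARSB made up 50.6% ± 2.71 of that sum in si-SCR against 38.7% ± 5.67 in si-CyCoNP. SUMF1, which makes the modified cysteine and was looked at after these values had been seen, had 1.24 ± 0.189 FPKM under si-SCR and 0.990 ± 0.0566 FPKM under si-CyCoNP and did not pass (edgeR, adjusted p = 0.256).

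Glycosidases went in both directions. GLA, the alpha-galactosidase lacking in Fabry disease (chromosome X, 101393273 to 101408012), had 10.2, 10.6 and 14.1 FPKM under si-SCR against 20.5, 20.4 and 21.4 under si-CyCoNP. The si-CyCoNP libraries were close to one another and well above the others, a 1.69-fold rise (log2 fold change 0.76, SE 0.124, edgeR adjusted p = 2.97e-05). MANBA, the beta-mannosidase, had 0.833, 0.996 and 1.19 FPKM under si-SCR against 0.603, 0.601 and 0.575 under si-CyCoNP, and fell by 0.83 on the log2 scale (edgeR, adjusted p = 0.00777). GUSB, the beta-glucuronidase often used as a reference gene, fell by 0.32 (edgeR, adjusted p = 0.0285), from 14.9 ± 0.941 to 12.6 ± 0.441 FPKM. Its call was lost under 10 of 14 alternatives, more than for any other of the 17.

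GAA, the acid alpha-glucosidase, had 6.17 ± 0.714 and 7.42 ± 0.445 FPKM and did not pass. HEXA, a hexosaminidase subunit, had 2.21 ± 0.289 and 2.18 ± 0.147 FPKM. For NAGLU, an enzyme of heparan sulfate breakdown, the groups did not overlap, at 5.53 ± 0.281 and 4.58 ± 0.409 FPKM, yet NAGLU did not pass at -0.34 on the log2 scale (edgeR, adjusted p = 0.184). FUCA1, the fucosidase, had 4 to 11 counts per library and was not tested.

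Among enzymes of lipid breakdown, those of the sphingomyelin and ceramide steps fell. SMPD1, the acid sphingomyelinase, had 7.48, 8.63 and 6.25 FPKM under si-SCR against 5.63, 4.21 and 4.22 under si-CyCoNP (log2 fold change -0.72, SE 0.191, edgeR adjusted p = 0.00505). ASAH1, the acid ceramidase, fell by 0.43 on the log2 scale (edgeR, adjusted p = 0.00232), from 5.05 ± 0.364 to 3.94 ± 0.193 FPKM. The groups of both genes were separate. PPT1, which removes palmitate from proteins, went the other way, with 9.93, 8.41 and 13.8 FPKM under si-SCR against 16.4, 14.4 and 16.5 under si-CyCoNP. It rose 1.40-fold (edgeR, adjusted p = 0.00516), although si-SCR replicate 3 came close to the other group. LIPA, the acid lipase of cholesteryl esters, had 14.9 ± 1.03 and 13.6 ± 2.02 FPKM and did not pass.

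NPC1, the membrane protein that exports cholesterol from the lysosome, had 3.07, 3.89 and 3.10 FPKM under si-SCR against 2.55, 2.16 and 2.06 under si-CyCoNP. It fell by 0.63 on the log2 scale (edgeR, adjusted p = 0.00218), with separate groups. NPC2, its soluble partner, had 6 to 22 counts per library, and its 95% interval ran from -1.38 to 0.30, so that a change of the size seen for NPC1 was not detectable. PSAP, the precursor of the saposins and the most abundant gene of the set per length, had 204 ± 4.60 FPKM under si-SCR and 212 ± 6.51 FPKM under si-CyCoNP. Its log2 fold change was -0.01 with an interval from -0.16 to 0.14.

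Of the 5 membrane proteins, SCARB2 fell and the other 4 did not pass. SCARB2, also known as LIMP-2, is the receptor that takes glucocerebrosidase to the lysosome (chromosome 4, 76158737 to 76234536). It had 1439, 1153 and 1234 counts under si-SCR against 787, 589 and 580 under si-CyCoNP, or 17.4, 15.9 and 13.4 FPKM against 8.50, 7.18 and 7.25 FPKM. No si-CyCoNP library came near the si-SCR range, and 47.0% of the level remained (log2 fold change -1.09, SE 0.0997, edgeR adjusted p = 3.21e-09). LAMP1, the most used marker of lysosomal mass, had 20.8 ± 0.945 and 21.2 ± 0.513 FPKM, and its log2 fold change of -0.04 had an interval from -0.22 to 0.14. CD63, a tetraspanin of late endosomes, had 77.9 ± 6.76 and 80.7 ± 4.01 FPKM, with an interval from -0.19 to 0.16. LAMP2, the sister protein of LAMP1, had 9.14 ± 0.833 and 10.7 ± 0.656 FPKM, with an interval from -0.05 to 0.36. MCOLN1, a calcium channel of the lysosome, had 5.64 ± 1.12 and 4.50 ± 0.509 FPKM and did not pass at -0.39 on the log2 scale (edgeR, adjusted p = 0.101) but did so without si-SCR replicate 1. The signs of the estimates for CTSA, TPP1, PSAP, LAMP1 and CD63 depended on the scaling, and each was above 0 with library totals alone.

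**Figure D3:**
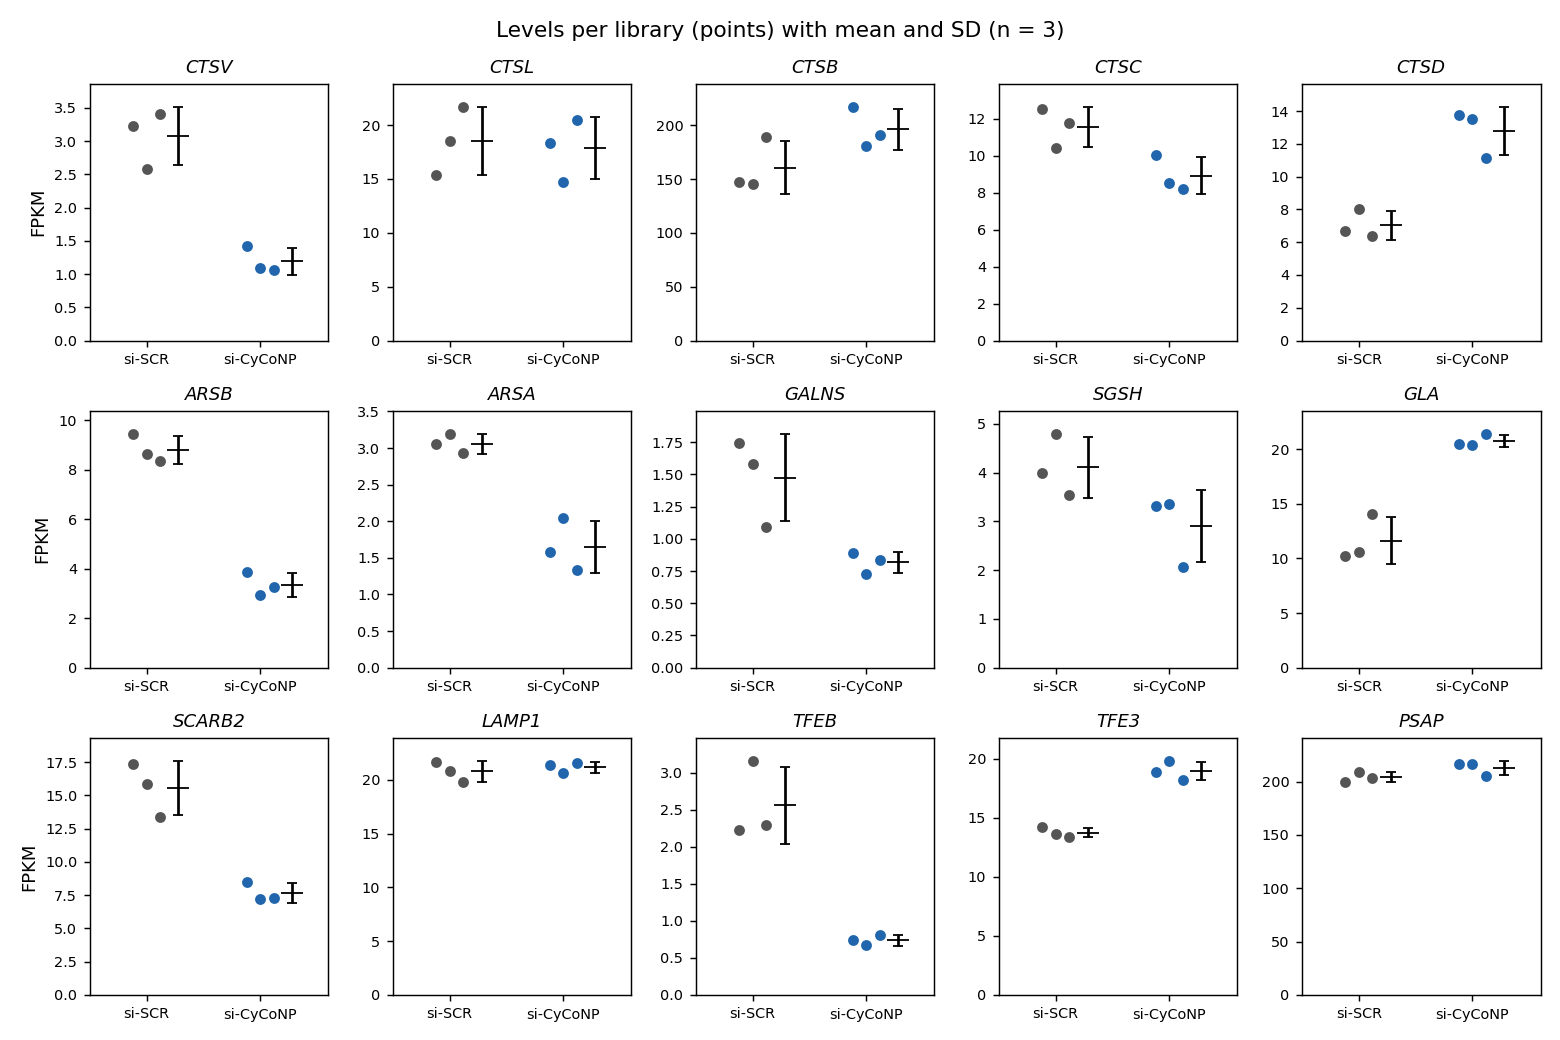
FPKM of 15 lysosomal genes in each library (points), with the mean and standard deviation of the 3 libraries beside them, on axes that start at 0. CTSV, ARSB, ARSA, SCARB2 and TFEB are lower and CTSD, GLA and TFE3 higher in every si-CyCoNP library, while CTSL and LAMP1 overlap between groups.

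The transcription factors of the lysosome moved in opposite directions. TFEB (chromosome 6, 41683978 to 41736259) had 54, 67 and 62 counts under si-SCR against 20, 16 and 19 under si-CyCoNP. In FPKM these were 2.23, 3.15 and 2.30 against 0.738, 0.667 and 0.811. The groups lay far apart, and 27.9% of TFEB remained, the lowest share among the tested genes of the set (log2 fold change -1.84, SE 0.255, edgeR adjusted p = 2.7e-06). TFE3 (chromosome X, 49028726 to 49043410) had 14.2, 13.6 and 13.4 FPKM under si-SCR against 18.9, 19.8 and 18.2 under si-CyCoNP. It rose 1.32-fold in separate groups (edgeR, adjusted p = 0.00366). Per length there were 6.39, 4.33 and 5.85 TFE3 fragments for each TFEB fragment in si-SCR against 25.6, 29.7 and 22.5 in si-CyCoNP.

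The letters CACGTG were searched in promoter windows from 250 bases before to 50 after each gene start (RefSeq, GRCh38.p14), which the reference table held for 26 of the 38 genes. The motif reads the same on both strands. It was found in 9 of these 26 genes (34.6%) and in 12.9% of the 9103 tested genes with a window. The 26 include CTSH, CTSZ and FUCA1, which were not tested and held no CACGTG. The longer TCACGTGA, which contains it, was found in 5 of the 26 (19.2%) and in 2.37% of the tested genes. The 9 genes were ARSB and GALNS, which fell, CTSD, which rose, and CD63, CTSA, CTSF, GAA, LAMP1 and MCOLN1, which did not pass. ARSA, SGSH, MANBA and ASAH1, which also fell, had no window in the reference table. Neither did CTSB, CTSK, HEXA, NAGLU, PSAP and LAMP2, which did not pass, nor the untested CTSO and CTSS. Windows of 30 bases around a motif are printed for genes that fell, rose or did not pass, as examples of the letters found, with capitals for CACGTG and, where present, the T before and the A after it. All are given 5′ to 3′ on the strand of the gene.
ARSB, fell, chr5:78986101-78986130, minus: taattcaataagCACGTGActaaaggattt
GALNS, fell, chr16:88857104-88857133, minus: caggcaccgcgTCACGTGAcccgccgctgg
CTSD, rose, chr11:1763957-1763986, minus: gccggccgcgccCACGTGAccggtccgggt
GAA, did not pass, chr17:80101493-80101522, plus: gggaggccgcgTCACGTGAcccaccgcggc
LAMP1, did not pass, chr13:113297199-113297228, plus: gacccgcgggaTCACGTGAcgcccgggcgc
MCOLN1, did not pass, chr19:7522571-7522600, plus: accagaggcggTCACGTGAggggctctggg
A match of letters is a description and says nothing of whether either factor was bound, and the windows of CTSV, SCARB2 and TFEB itself held no CACGTG.

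A microRNA, hsa-miR-4492, was examined in the study together with CyCoNP, and its seed (bases 2 to 8, in capitals) pairs with the letters CCAGCCC in a transcript. The study combined several prediction programs and took CTSV as a putative target. It reported slightly more CTSV RNA when the microRNA was blocked, and less in motor neurons with CyCoNP knocked out. The letter search here is simpler than those predictions and bears on neither experiment. These letters were searched in the 3′ untranslated regions of the canonical transcripts (GENCODE 44, GRCh38), on the transcript strand. They occurred in 5 of the 32 tested lysosomal genes with such a region (15.6%) and in 23.4% of 10488 tested protein-coding genes. The regions of the lysosomal genes were shorter, with a median of 951.5 bases against 1397, and the matches per kilobase were 0.19 against 0.183. CTSV and CTSL held 1 each, SGSH held 2, TFE3 held 3 and TPP1 held 1. The sites of CTSV, which fell, and of CTSL, which did not pass, are shown with 11 bases on either side.
hsa-miR-4492, chr11:118910765-118910781, plus: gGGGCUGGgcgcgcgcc
CTSV, chr9:97032115-97032143, minus: agccactgcgcCCAGCCCctaaattgttt
CTSL, chr9:87731169-87731197, plus: tcttcagtctaCCAGCCCccgctgtgtcg
The CTSV match begins at base 817 of 3272 of its untranslated region and the CTSL match at base 73 of 362. Of the 13 genes that fell, 2 held the letters. ARSB, SCARB2 and TFEB held none, and TFE3, which rose, held the most. Among 693 genes with an untranslated region within 10% of the length in CTSV, 29.4% held at least 1 match.

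Other lysosomal genes gave the setting for these values. Beside the 28.4% of all genes that passed, 38.5% of 26 other tested hydrolases did so, 7 lower and 3 higher, with a median log2 fold change of -0.16. DNASE2, the acid nuclease, was called lower, from 4.60 ± 0.722 to 2.07 ± 0.558 FPKM (edgeR, adjusted p = 0.00101), and NAAA, an amidase of fatty acid ethanolamides, was called higher, from 0.786 ± 0.324 to 1.85 ± 0.513 FPKM (edgeR, adjusted p = 0.0094). NAAA entered the test only through its si-CyCoNP level, and its call was lost without si-SCR replicate 2, without si-CyCoNP replicate 1 and on both FPKM scales with limma. PLBD2, a phospholipase B-like protein, and SCPEP1, a serine carboxypeptidase, rose by 0.44 and 0.54 on the log2 scale. Of 22 other membrane proteins 22.7% passed, which is below the share of all genes, with 3 lower and 2 higher. The 2 that rose were CD164, a sialomucin, and TMEM192, at log2 fold changes of 0.61 and 0.79, while SLC36A1, an amino acid transporter, fell by 0.67 but did not pass on the FPKM scales with limma.

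The vacuolar ATPase, the proton pump that acidifies the lysosome, had 11 of 16 tested subunits past the threshold, 7 lower and 4 higher. These are 68.8%, beside 28.4% of all genes, 14.2% lower and 14.2% higher. ATP6V1A and ATP6V0E1 rose, with log2 fold changes of 0.54 and 0.61, and ATP6V1E1 fell by 0.56. In the list of sorting and maturation factors 38.1% passed, also beside 28.4% of all genes, with 3 of 21 lower and 5 higher. SORT1, the sortilin receptor that carries hydrolases and saposin precursor from the Golgi, had 22.2, 20.9 and 18.9 FPKM under si-SCR against 11.3, 9.59 and 8.98 under si-CyCoNP. It was called lower with separate groups, with 46.0% of its level left (log2 fold change -1.12, SE 0.0986, edgeR adjusted p = 1.54e-09). CLN8 and GGA2, both of which serve transport of the enzymes, rose, with log2 fold changes of 0.88 and 0.44. Of 13 inhibitors of cathepsins 3 were tested, and the other 10 had 0 counts in every library. SERPINB6 rose by 0.38 on the log2 scale. It no longer passed without si-SCR replicate 1, without si-CyCoNP replicate 1 and on the FPKM scales with limma. The cystatins CST3 and CSTB did not pass, at -0.22 and -0.20.

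Regulators of TFEB and the autophagy genes were listed as well. Of 20 tested genes of nutrient control by mTORC1, the kinase complex that holds TFEB in the cytoplasm, 4 fell and 2 rose, so that 30.0% passed, close to the 28.4% of all genes. RRAGA, a GTPase that recruits the complex, fell by 0.47, LAMTOR2, a scaffold subunit, by 0.58, and YWHAZ, a 14-3-3 protein that binds phosphorylated TFEB, by 0.67. Of 25 tested autophagy genes 6 fell and 2 rose, or 32.0%, again close to that share. GABARAPL1, a protein of the autophagosome membrane, rose from 4.34 ± 0.0723 to 12.6 ± 0.958 FPKM (edgeR, adjusted p = 3.46e-09), and ULK1, the kinase that starts autophagy, rose from 4.26 ± 0.752 to 9.68 ± 0.385 FPKM (edgeR, adjusted p = 6.16e-08). ATG2B, a lipid transfer protein of the growing membrane, fell by 0.83.

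**Figure D4:**
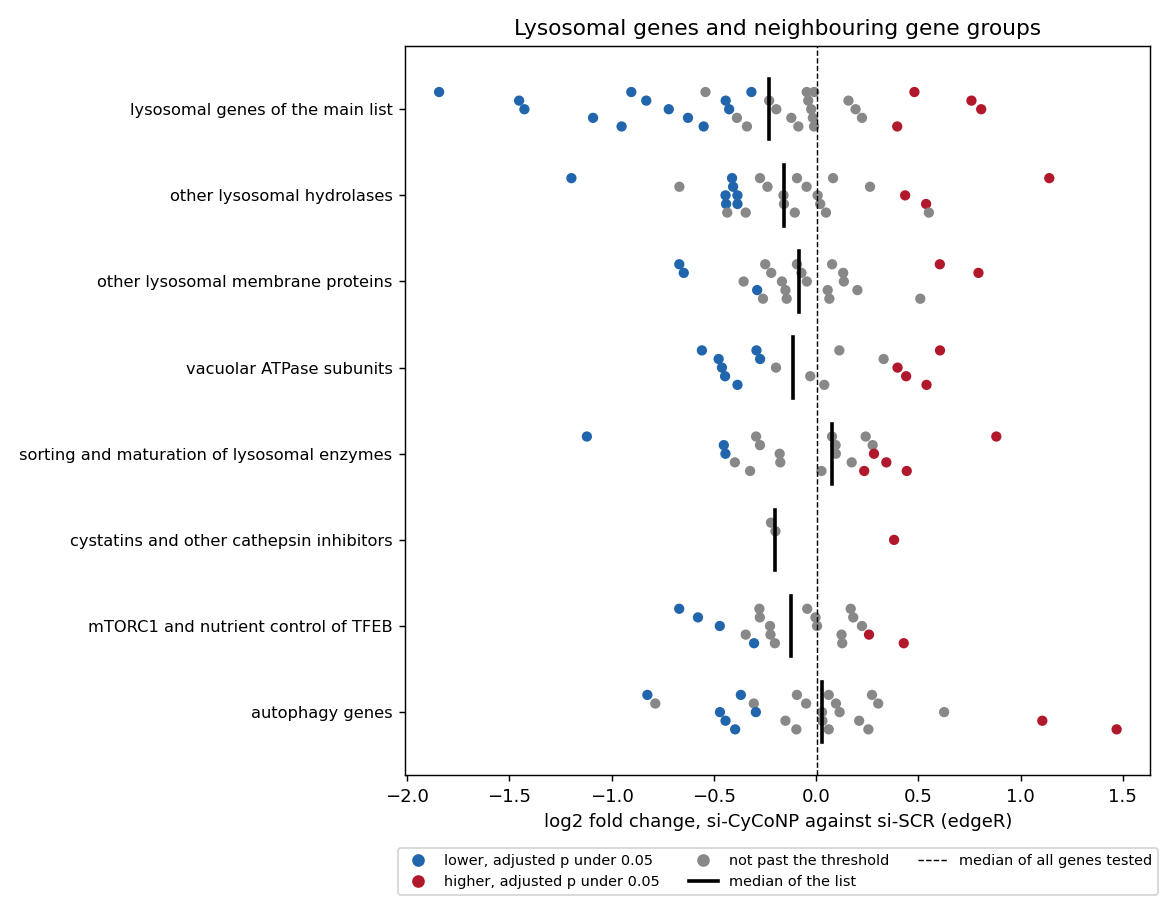
Log2 fold changes of the tested genes in the lysosomal set and in 7 neighbouring lists (1 point a gene), with the median of each list as a bar and the median of all genes tested as a dashed line. List medians run from -0.23 for the lysosomal set to 0.08 for sorting and maturation. Every list but the inhibitors, of which only 3 were tested, has genes past the threshold on both sides.

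Marker genes of the cell type were checked beside these results. All 10 adrenergic neuroblastoma markers were expressed, summing to 2611 to 3068 FPKM under si-SCR and 2170.2 to 2364 FPKM under si-CyCoNP. Of these, 7 fell and 1 rose, so that 80.0% passed, beside 28.4% of all genes, 14.2% lower and 14.2% higher. PHOX2A, CHGA and CHGB were called lower, at log2 fold changes of -1.13, -1.24 and -1.01, and MYCN rose by 0.84. Mesenchymal markers summed to 476 to 579 FPKM under si-SCR and 241 to 272 FPKM under si-CyCoNP. Most of each sum was LGALS1, at 457 ± 53.7 and 199 ± 20.1 FPKM. PRRX1 had 0 counts in every library. Of 6 tested mesenchymal genes 3 fell and 1 rose, so that 66.7% passed, and CD44 and TGFBR2 did not pass. LGALS1 and SNAI2 were called lower, both at -1.27, and VIM fell by 0.43 on the log2 scale. FOSL1 was called higher from 1, 0 and 3 counts under si-SCR against 5, 14 and 12 under si-CyCoNP. It entered the test only through its si-CyCoNP level, and its call was lost without si-CyCoNP replicate 2 and on both FPKM scales with limma. In bulk RNA, fewer cells of a type and less RNA per cell cannot be told apart, and the part of these marker shifts in the lysosomal values was not tested.

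Leukocytes are rich in cathepsins, so their markers were read too. Of 10 markers, ITGAM, AIF1, TYROBP, LYZ and CD3E were at 0 counts in all 6 libraries, and PTPRC, CSF1R, FCER1G and CD163 had at most 4. CD14, the only one tested, had 11, 12 and 13 counts under si-SCR against 43, 31 and 17 under si-CyCoNP and was called higher (edgeR, adjusted p = 0.01), but not without si-CyCoNP replicate 1. The list summed to 2.02 to 2.30 FPKM under si-SCR and 3.04 to 5.60 FPKM under si-CyCoNP.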

How the data were processed

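Total RNA from 6 libraries was sequenced by the authors as stranded paired-end reads after ribosomal RNA depletion. According to the submitters' processing notes and the methods of the study, reads were trimmed with Trimmomatic 0.39 and cutadapt 3.2, ribosomal reads were removed with Bowtie2 2.4.2, and the rest were aligned to GRCh38 with STAR 2.7.7a. The deposited counts are raw, uniquely mapping fragments per Ensembl release 99 gene, so genes with near-identical copies are undercounted. The deposited FPKM were also made by the authors and carry no correction for library composition. Groups were taken from the sample titles.

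The filter required an average of 1 FPKM or more in 1 of the groups, which kept 13966 genes. Their counts were fitted with edgeR 4.0.16 (R 4.3.3, TMM scaling, quasi-likelihood test), and p-values were adjusted by Benjamini-Hochberg over all of them. Passing means an adjusted p under 0.05, and called adds a log2 fold change of more than 1 up or down. The study's methods give DESeq2 with this filter and these thresholds, whereas 1 of its supplementary legends gives an edgeR likelihood ratio test, which was not tried. DESeq2 1.42.0 was an alternative here, beside other scalings and filters, a block on the replicate number, the omission of each library in turn, and limma 3.58.1 on log2(FPKM + 1) and log2(FPKM + 0.1). The edgeR test was checked only on simulated counts in which few genes changed and all had the same spread beyond counting noise. That setting is simpler than these libraries. All members of the set were named, and in each other list the called genes and the up to 3 genes of smallest p. Members and lists were chosen with earlier results of these data known, so counts over them are descriptions. Totals of the count table limit the precision of genes with few counts, and counting error excludes PCR duplication. These totals were far below the number of sequenced reads per sample that the study states, and the gap was not examined.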

Additional observations from a re-analysis of the deposited data

How the results depend on the processing

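Of the 17 passing lysosomal genes, 9 passed in the same direction under all 14 alternatives (CTSV, CTSD, GLA, ARSA, ARSB, SMPD1, SCARB2, TFEB and TFE3), 8 were lost under at least 1, and 0 reversed. CTSV ranged from -1.58 to -0.89 with an adjusted p from 2.61e-07 to 0.00905. CTSC, MANBA, GALNS, ASAH1, PPT1 and NPC1 were lost only on the FPKM scales with limma, where 6 genes passed lower. SGSH was lost there and also without si-SCR replicate 2 or si-CyCoNP replicate 3. On log2(FPKM + 1), which compresses low values, 2 genes were called lower and the median of the tested genes was -0.13. MANBA was not tested without si-SCR replicate 3. Depth limits CTSK and NPC2 and the 5 genes not tested, and CTSF for changes as small as that of CTSC.

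With the replicate block 13 genes passed lower and 5 higher, the median was -0.24, and CTSB was the gene gained (0.23, adjusted p = 0.00369, edgeR). Over all genes, 2368 then passed lower and 2403 higher. Deviations of libraries with the same number correlated at 0.0907, 0.0727 and 0.108, each library correlating best with its own number, and no label ties the numbers to a batch.

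Among the 16 genes that did not pass, 7 changed sign under some alternative. With library totals alone CTSF was at 0.058, CTSA at 0.022, TPP1 at 0.042, PSAP at 0.058, LAMP1 at 0.030 and CD63 at 0.051. On log2(FPKM + 1) and log2(FPKM + 0.1) CTSF was at 0.064 and 0.083, CTSA at 0.019 and 0.021, TPP1 at 0.046 and 0.058, PSAP at 0.057 and 0.057, LAMP1 at 0.028 and 0.029, and CD63 at 0.053 and 0.054. Leaving out 1 library gave CTSF -0.13 to 0.15, CTSL -0.23 to 0.00162, CTSA -0.12 to 0.0498, TPP1 -0.12 to 0.0788, PSAP -0.0322 to 0.0138, LAMP1 -0.0936 to 0.00877 and CD63 -0.0728 to 0.0171. Over all genes, the median shift from the main fit was 0.067 with library totals alone. It was 0.064 on log2(FPKM + 1) and 0.068 on log2(FPKM + 0.1). The cause of the sign changes was not tested.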
